A study of Mus musculus with 6 samples.

Results

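Apoe, Apoc1 and Apoc2 encode small apolipoproteins, the proteins that coat lipoprotein particles. Their expression was followed in BV2, a permanently growing line of mouse microglia, after exposure to adenine, a purine base. The array's probe annotation names 1 probe for each gene, under the symbols APOE, APOC1 and APOC2, so the values below come from 3 of 26423 probes, or 3 of 17742 named genes. The genes were chosen from results in which their values at the higher adenine dose were already known. Every value that involves that dose is therefore a description, and the lower dose against control is the comparison in which they were tested. That test shares its control arrays with the comparison that was known, so it is not fully separate from the choice. The series holds 6 single-colour arrays, with 2 arrays each of untreated control cells, cells after 1 h with a lower adenine dose and cells after 1 h with a higher one. The doses are given as 20 and 80 µM in titles and treatment protocol but as 80 and 250 µM in the sample characteristics, and both versions rank the groups alike. All groups were the same cell line, with no genetic change or other agent named in the labels. Since nothing states that arrays of 1 group were separate cultures, errors and p-values measure the spread between arrays, which may be technical.

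Apolipoprotein E is the main lipid carrier made in the brain. It is a ligand of the low-density lipoprotein receptor family and of TREM2, and its gene is known to be raised in microglia near amyloid plaques. Apolipoprotein C-II is the activating cofactor of lipoprotein lipase, and apolipoprotein C-I inhibits that lipase and hinders uptake of particles by receptors. In mouse and human the genes lie in 1 cluster with Apoc4, and in macrophages the cluster is known to be induced by liver X receptors, which sense oxidised sterols, through shared enhancers.

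The sequences around the annotated transcription starts are shown because the genes rose together at the higher dose. Each runs 5′ to 3′ on the gene's strand, from 250 bases before the start through the first 50 transcribed bases, as given by RefSeq for assembly GRCm38.p6. Both lie on the minus strand, Apoe at chr7:19699139-19699438 (the most upstream of 3 starts in the RefSeq table) and Apoc2 at chr7:19677892-19678191. Capitals mark matches to any of 6 short motifs, searched on both strands. These were the TATA box TATAAA, the CCAAT box, the GC box GGGCGG, the nuclear receptor half-site AGGTCA, the ETS factor core GAGGAA and the AP-1 site TGANTCA.
Apoe: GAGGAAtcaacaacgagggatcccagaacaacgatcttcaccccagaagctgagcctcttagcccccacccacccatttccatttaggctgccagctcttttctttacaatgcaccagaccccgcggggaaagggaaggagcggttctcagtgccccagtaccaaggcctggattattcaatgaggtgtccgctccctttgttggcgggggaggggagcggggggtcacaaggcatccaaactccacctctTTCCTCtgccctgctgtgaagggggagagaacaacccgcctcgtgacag
Apoc2: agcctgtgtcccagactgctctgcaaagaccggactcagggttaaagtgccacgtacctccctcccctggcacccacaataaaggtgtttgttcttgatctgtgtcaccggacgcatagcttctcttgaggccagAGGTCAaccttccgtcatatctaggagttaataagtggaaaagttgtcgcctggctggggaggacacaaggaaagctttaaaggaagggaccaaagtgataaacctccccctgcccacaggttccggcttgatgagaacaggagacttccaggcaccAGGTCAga
The Apoe sequence holds GAGGAA, a core of sites for ETS factors such as PU.1, at −250, and the same motif on the opposite strand at 2. GAGGAA was present in 28.3% of 32851 promoter sequences of the same length. The Apoc2 sequence holds AGGTCA at −115 and at 43, and 16.3% of promoter sequences hold it. Of the other Apoe starts, the second has overlapping TATAAA matches on both strands at −96 and −100, a motif in 13.6% of promoter sequences, and the third has GAGGAA at −132. No motif was shared by the printed Apoe and Apoc2 sequences. A match is a description of the letters and not a binding site.

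The higher-dose arrays stood apart from the other 4 arrays over the whole array. Over probes above the median intensity, Pearson's r of log2 values was 0.989 between the higher-dose arrays, and 0.929 to 0.941 between them and the other 4. Array medians as deposited ranged from 125 to 170 units, and 10 to 39 probes an array read 65000 units or more, near the scanner's ceiling. Of 13 measured microglia and macrophage markers, 0 lay at or below the array median on all 6 arrays. Itgam, an integrin of microglia, read 2313 and 2219 units in control cells, 2649 and 2657 units at the lower dose and 4106 and 3644 units at the higher dose. Of 24 measured genes of homeostatic microglia, however, 9 lay at or below the array median on all 6 arrays. Cx3cr1 read 79 to 126 units, Siglech 12 to 28, Sall1 5 to 45, Fcrls 3 to 9, Gpr34 39 to 59 and Olfml3 57 to 99 units over the 6 arrays, each below its array's median. Others of the 24 read above the array median on all 6 arrays, among them Tmem119 at 187 to 319 units and Mertk at 323 to 1000 units. The cells thus carried markers shared by microglia and macrophages. Their genes of homeostatic microglia were mixed, with some at low readings.

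Apoe read 6104 and 5650 units in control cells, 6303 and 7955 units at the lower dose and 25563 and 22016 units at the higher dose. Both higher-dose arrays lay far above the other 4, while the control and lower-dose arrays lay close together. Apoc1 read 85 and 109 units in control cells, 108 and 153 units at the lower dose and 727 and 738 units at the higher dose. The probe lay below its array's median on the control and lower-dose arrays and above it on both higher-dose arrays. Apoc2 read 385 and 563 units in control cells, 561 and 468 units at the lower dose and 2140 and 2233 units at the higher dose. The control and lower-dose arrays overlapped for all 3 genes once the arrays were normalized to a common distribution. Both higher-dose arrays lay above the other 4 for each gene, as they did for 21% of all probes.

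**Figure D1:**
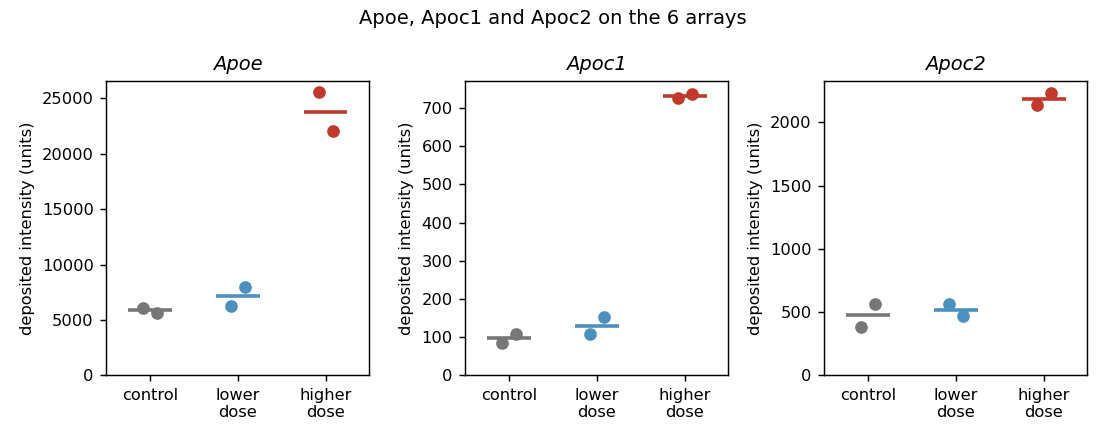
Deposited intensity of Apoe, Apoc1 and Apoc2 (vertical axes, units, each from 0) on the 2 control, 2 lower-dose and 2 higher-dose arrays. Points are arrays and bars are group means. The higher-dose points stand above all others in each panel, and the control and lower-dose points lie close together.

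In cells given the higher dose, normalized Apoe intensity averaged 20930 ± 1006 units, against 6303 ± 796.3 units in control cells (SD, n = 2 each). That is a 3.33-fold difference, or a log2 change of 1.74 ± 0.19 (SE, 95% interval 1.25 to 2.22). Normalized Apoc1 intensity averaged 797.7 ± 41.96 units at the higher dose and 104.5 ± 11.37 units in control cells (SD, n = 2 each), 7.65-fold apart with a log2 change of 2.94 ± 0.18 (95% interval 2.48 to 3.39). Of the 3 genes, Apoc1 had the largest change. Normalized Apoc2 intensity averaged 2344 ± 168.2 units at the higher dose and 489.1 ± 94.63 units in control cells (SD, n = 2 each), 4.83-fold apart with a log2 change of 2.27 ± 0.23 (95% interval 1.69 to 2.86).

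The separation held for each pair of arrays. Any higher-dose array exceeded any control array by 2.95-fold to 3.77-fold for Apoe, by 6.83-fold to 8.58-fold for Apoc1 and by 4.00-fold to 5.84-fold for Apoc2. The spread within groups was small beside these values. The 2 higher-dose arrays differed by 1.07-fold, 1.08-fold and 1.11-fold for Apoe, Apoc1 and Apoc2, and the 2 control arrays by 1.20-fold, 1.17-fold and 1.32-fold. Among all 26423 probes ordered by log2 change, 31 had a larger rise than Apoc1, 81 a larger rise than Apoc2 and 273 a larger rise than Apoe.

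At an adjusted p of 0.05 in limma, 3 of the 3 probes were past the threshold in the rising direction, as were 5.55% of all probes. Since this contrast was known when the genes were chosen, nothing is read from that count. In fits that left out either control array or either higher-dose array, which have 2 residual degrees of freedom in place of 3, 0 of the 3 probes were past the threshold (adjusted p 0.0875 to 0.121), with log2 changes of 1.62 to 1.87 for Apoe, 2.81 to 3.03 for Apoc1 and 2.07 to 2.47 for Apoc2. In those 4 fits 6 to 30 of all 26423 probes were called.

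The 3 genes differed in the size of their change. The log2 change of Apoe minus that of Apoc1 was −1.20, while the per-array difference between the genes varied by 0.21 within the higher-dose pair and by 0.48 within the control pair. The change of Apoc1 exceeded that of Apoc2 by 0.66, against within-pair gaps of 0.04 and 0.17. Apoe minus Apoc2 was −0.54, smaller than the gap of 0.66 within the control pair, so these 2 genes were not separated beyond the spread. The order Apoc1, Apoc2, Apoe was the same in 17 of 17 alternative fits. The size of the lead of Apoc1 depended on how dim values were handled, since with 64 units added before the log its change was 2.36, beside 2.13 for Apoc2 and 1.73 for Apoe.

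At the lower dose, normalized Apoe intensity averaged 6919 ± 1059 units, against 6303 ± 796.3 units in control cells (SD, n = 2 each), a log2 change of 0.13 ± 0.19 (limma adjusted p = 0.89). Normalized Apoc1 intensity averaged 117.3 ± 15.08 units at the lower dose and 104.5 ± 11.37 units in control cells (log2 change 0.17 ± 0.18, limma adjusted p = 0.852). Normalized Apoc2 intensity averaged 468.2 ± 94.16 units at the lower dose and 489.1 ± 94.63 units in control cells (log2 change −0.06 ± 0.23, limma adjusted p = 0.958). None of the 3 genes differed from control beyond the spread between arrays, and 0 of 3 were past the threshold, where 0.0114% of all probes were. At an unadjusted p under 0.05, 0 of the 3 and 6.36% of all probes differed. The 95% intervals, as ratios of lower dose to control, ran from 0.784 to 1.53 for Apoe, from 0.82 to 1.54 for Apoc1 and from 0.638 to 1.44 for Apoc2. A rise of the size seen at the higher dose lies outside each interval. Changes within these limits, in either direction, cannot be told from no change. The sign for Apoc2 turned on values as deposited, where its log2 change was 0.14.

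**Figure D2:**
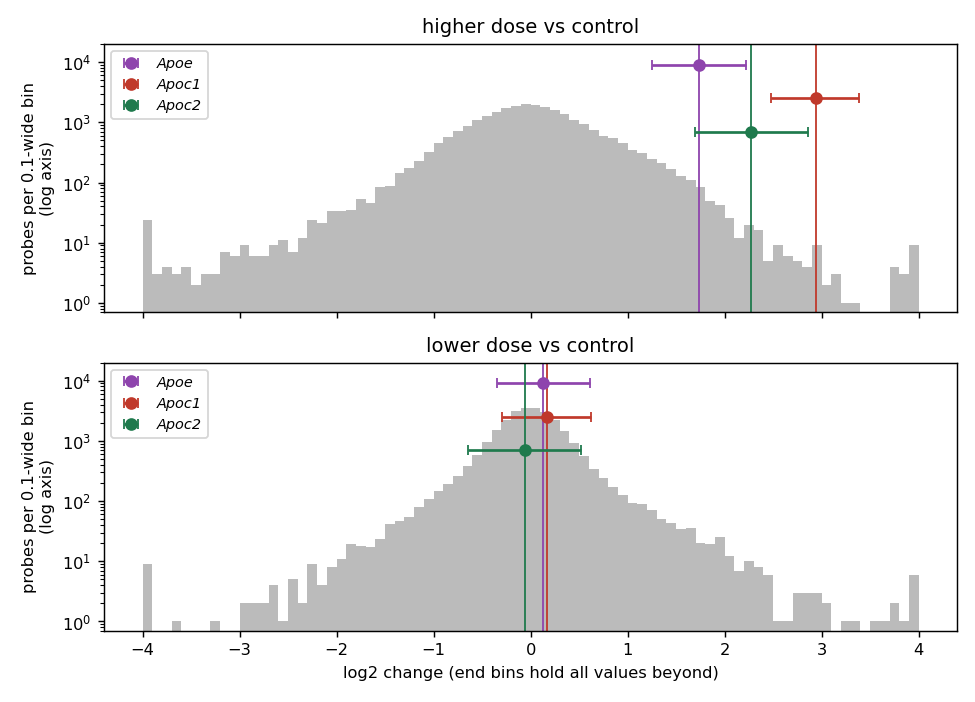
Log2 change of all 26423 probes (grey bars, number of probes in bins 0.1 wide, log vertical axis) at the higher dose (top) and the lower dose (bottom) against control. Coloured lines mark Apoe, Apoc1 and Apoc2, and points with bars give their 95% intervals at arbitrary heights. The 3 genes lie in the right tail at the higher dose, at 1.74, 2.94 and 2.27, and within 0.17 of zero at the lower dose.

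Set against the lower dose, the higher dose gave much the same picture for the 3 genes. The 2 comparisons share the higher-dose arrays, so they are not separate evidence. The log2 change of the higher over the lower dose was 1.60 ± 0.19 for Apoe (3.04-fold), 2.77 ± 0.18 for Apoc1 (6.82-fold) and 2.34 ± 0.23 for Apoc2 (5.05-fold). For each gene the step lay between the lower and the higher dose. In this comparison 3 of 3 probes were past the threshold as higher, as were 6.78% of all probes. The count was 0 when only these 2 groups were fitted, when 7 of all probes were called, and 0 in each fit without 1 array (adjusted p 0.0517 to 0.115).

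The other apolipoprotein gene of the cluster, Apoc4, lies between Apoc2 and Apoc1 in the RefSeq gene order. It read 478 and 525 units in control cells, 559 and 728 units at the lower dose and 681 and 717 units at the higher dose. The higher-dose and lower-dose arrays overlapped, and the log2 change of 0.54 ± 0.17 at the higher dose against control was not past the threshold (limma adjusted p = 0.102). Of 13 protein-coding neighbours, Apoc4 and the 6 nearest on each side, 11 had a probe. Of these, 1 rose at the higher dose and 0 fell, with a median log2 change of 0.38. Among all named genes, 6.37% rose and 5.39% fell. Gemin7, a component of the SMN complex that assembles spliceosomal ribonucleoproteins, rose by 2.04 ± 0.18 on the log2 scale (limma adjusted p = 0.0185). It stood at the far end of the window on the Apoc2 side, and its call was lost without either control or either higher-dose array. Tomm40, the mitochondrial import pore gene next to Apoe, had a log2 change of 0.53 ± 0.25 (limma adjusted p = 0.24). Clptm1, the nearest measured neighbour on the Apoc2 side, had a log2 change of 0.21 ± 0.15 (limma adjusted p = 0.423). The 4 largest changes in the window were those of Apoc1, Apoc2, Gemin7 and Apoe.

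**Figure D3:**
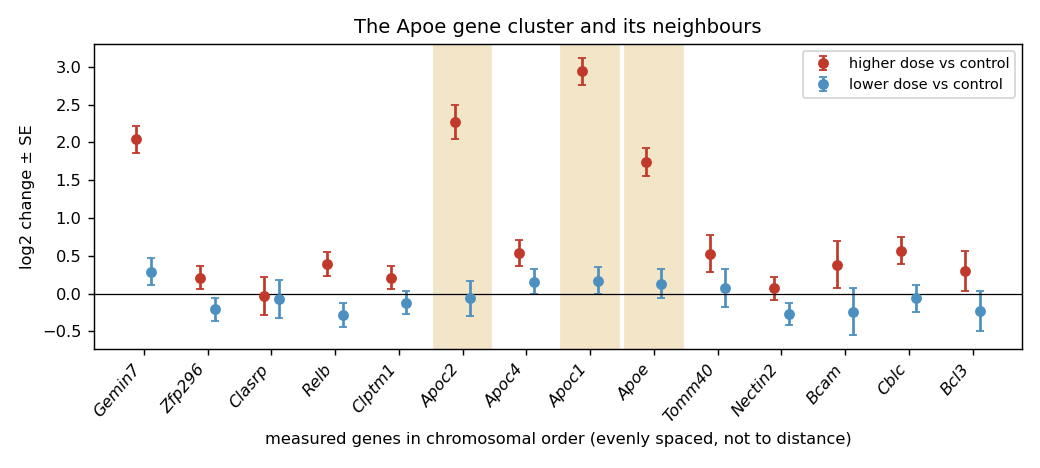
Log2 change with SE (vertical axis) of the measured genes of the Apoe cluster and its neighbours in chromosomal order (horizontal axis, evenly spaced), for the higher dose (red) and the lower dose (blue) against control. Shaded columns are Apoc2, Apoc1 and Apoe. Apoc4, between Apoc2 and Apoc1, stands at 0.54, and all neighbours but Gemin7 lie between −0.03 and 0.57 at the higher dose.

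The genes are short, with annotated spans of 5.07 kb for Apoe, 3.18 kb for Apoc1 and 6.36 kb for Apoc2, and short genes as a group shifted upwards at the higher dose. Among 1868 other genes with spans in this range the median log2 change was 0.12 and 10.9% rose, beside a median of −0.02 and 6.38% over all 17710 named genes with a span. After each array's trend with gene span was removed, the log2 change of Apoe was 1.59, that of Apoc1 was 2.79 and that of Apoc2 was 2.14. Removing the trend takes off only the average shift at a given span, so the part of gene span in the 3 changes was not tested.

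The genes whose profile over the 6 arrays was most like each apolipoprotein were found by the root mean square difference of log2 values, each gene's own mean taken off. The search covered 11378 named probes whose mean log2 value was above that of the median probe. The values describe likeness on 6 arrays and share the same higher-dose step. For Apoe the nearest were the mitochondrial ribosomal protein gene Mrpl54 (0.048), the cytochrome oxidase subunit gene Cox6a2 (0.058), Chchd7 (0.063), 1110008P14Rik (0.067) and the probe annotated STRA13 (0.068). For Apoc1 they were Gmfg (0.142), the complement gene Cfp, which encodes properdin (0.161), Igfbp6 (0.18), Pla2g2e (0.224) and the lectin receptor gene Clec4d (0.226). For Apoc2 they were Ms4a6d (0.16), Emp3 (0.168), the protease inhibitor gene Slpi (0.178), Lst1 (0.191) and Acoxl (0.194). By this measure, which grows with any difference in the size of the step, the 3 apolipoprotein genes were not each other's closest match. Pearson's r over the 6 arrays was 0.987 for Apoe and Apoc1, 0.982 for Apoc1 and Apoc2 and 0.949 for Apoe and Apoc2. It was 0.986 to 0.999 between each apolipoprotein gene and the genes named as its nearest. Apoc1 and Apoc2 differed by 0.341, with 18 other genes nearer to Apoc1, and Apoe and Apoc1 differed by 0.578, with 1956 other genes nearer to Apoe.

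Of 28 other apolipoprotein genes listed beside Apoe, Apoc1 and Apoc2, 21 had a probe, and at the higher dose 3 rose and 0 fell in limma, where 6.37% of all named genes rose and 5.39% fell, with a median log2 change of 0.37 beside −0.02 over all named genes. Clu, which encodes clusterin or apolipoprotein J, a chaperone that also carries lipid in the brain, rose by 1.39 ± 0.20 on the log2 scale (limma adjusted p = 0.0244). The other 2 were Apoo (1.37 ± 0.17) and Apool (1.12 ± 0.14), both at limma adjusted p = 0.0204, which are named as apolipoproteins but encode subunits of the MICOS complex of mitochondrial cristae. Apoa2, an apolipoprotein of high-density lipoprotein, read 160 and 342 units in control cells, 247 and 514 units at the lower dose and 823 and 610 units at the higher dose. Its log2 change of 1.64 ± 0.43 was close to that of Apoe, with a larger error, and was not past the threshold (limma adjusted p = 0.0752). Apoc3, an inhibitor of lipoprotein lipase that lies in another cluster, had dim probe readings of 26 to 48 units and a log2 change of 0.65 ± 0.25 (limma adjusted p = 0.159). Apob, the structural protein of low-density lipoprotein, stood at 0.13 ± 0.22 (limma adjusted p = 0.743). The remaining genes ranged down to −0.44 for Apoa5 (limma adjusted p = 0.296). The 21 include Apobr, which encodes a receptor of apolipoprotein B and stood at 0.37 ± 0.18 (limma adjusted p = 0.248). At the lower dose 0 of the 21 were past the threshold and 1 had an unadjusted p under 0.05.

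**Figure D4:**
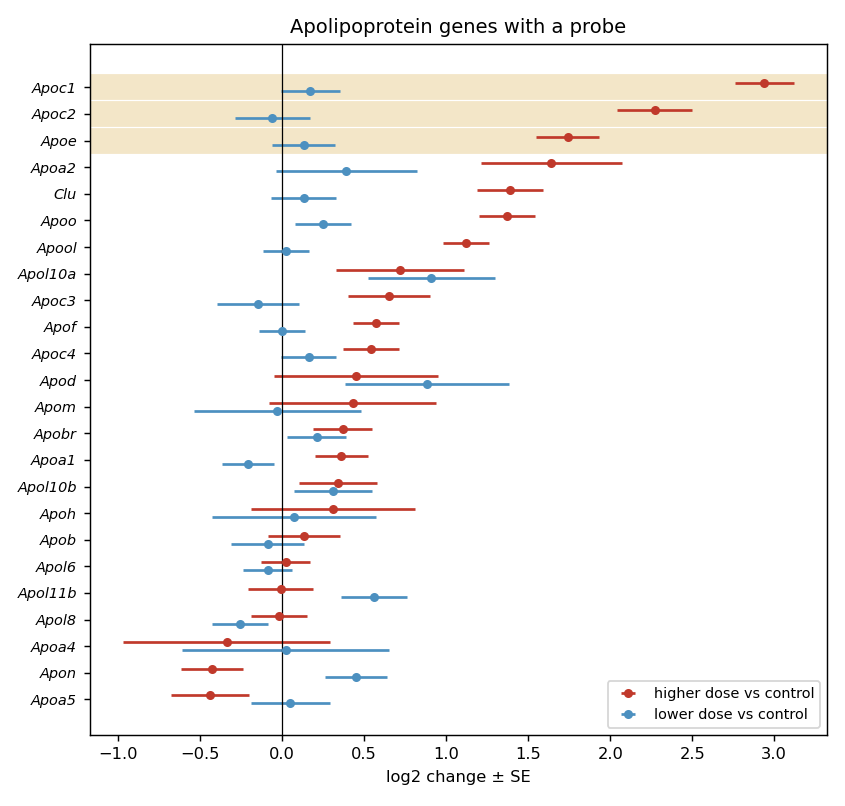
Log2 change with SE (horizontal axis) of the 24 listed apolipoprotein genes with a probe, among them the receptor gene Apobr, for the higher dose (red) and the lower dose (blue) against control. Genes are ordered by their change at the higher dose. Shaded rows are Apoc1, Apoc2 and Apoe, which have the 3 largest changes at the higher dose. At the lower dose they lie at 0.17, −0.06 and 0.13.

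Receptors and adaptors that bind or take up apolipoprotein particles were listed next. Of 32 genes, 26 had a probe, and at the higher dose 2 rose and 0 fell, a share near the 6.37% of all named genes that rose, with a median log2 change of 0.21. Marco, a macrophage scavenger receptor, rose by 1.76 ± 0.21 (limma adjusted p = 0.0204), and Lrp4, a member of the low-density lipoprotein receptor family, by 0.87 ± 0.18 (limma adjusted p = 0.045). Trem2, a microglial receptor that binds apolipoprotein E, read 7492 and 11915 units in control cells, 9793 and 10147 units at the lower dose and 22542 and 29284 units at the higher dose. The higher-dose arrays lay above the others, yet the log2 change of 1.14 ± 0.26 against control just missed the threshold (limma adjusted p = 0.0567), while that of 1.21 against the lower dose passed (limma adjusted p = 0.044). Cd36, a scavenger receptor, stood at 0.39 by its brighter probe (limma adjusted p = 0.279), which represents it in the count, and rose by 1.81 by its other probe (limma adjusted p = 0.0318). Lrp1, the main endocytic receptor of apolipoprotein E in many cells, stood at 0.18 ± 0.22 (limma adjusted p = 0.643).

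Lists of partners of the 3 apolipoproteins in lipid export and lipolysis held 2 and 3 calls at the higher dose, where 6.37% of all named genes rose and 5.39% fell. Of 36 genes of cholesterol efflux and liver X receptor signalling, 33 had a probe, and 1 rose and 1 fell, with a median log2 change of −0.13. Npc1, which moves cholesterol out of lysosomes, rose by 1.55 ± 0.17 (limma adjusted p = 0.0199), and Nr1d2, a nuclear receptor of the circadian clock, fell by 0.95 on the log2 scale (SE 0.18, limma adjusted p = 0.0356). The sterol exporters that load apolipoprotein particles did not pass against control. Abca1 stood at −0.37 ± 0.20 (limma adjusted p = 0.306). Abcg1 stood at 0.37 ± 0.17 by its brighter probe (limma adjusted p = 0.216) and at 0.13 by its other probe (limma adjusted p = 0.668). Against the lower dose Abcg1 rose by 0.82 by its brighter probe (limma adjusted p = 0.0378) and Abca1 stood at −0.48 (limma adjusted p = 0.185). The calls of Abcg1 and Trem2 against the lower dose were lost in each fit without 1 array. The liver X receptor genes stood at 0.42 ± 0.21 for Nr1h3 (limma adjusted p = 0.268) and −0.20 ± 0.18 for Nr1h2 (limma adjusted p = 0.519). Any part of these receptors in the apolipoprotein values was not tested. Of 22 lipases and remodelling factors, 21 had a probe, and 2 rose and 1 fell. The lysosomal acid lipase gene Lipa rose by 1.53 ± 0.23 (limma adjusted p = 0.0261) and the hormone-sensitive lipase gene Lipe by 1.51 ± 0.22 (limma adjusted p = 0.0249). P4hb, whose protein is a subunit of the microsomal triglyceride transfer complex, fell by 0.98 on the log2 scale (SE 0.17, limma adjusted p = 0.0321). Lpl, the lipase that apolipoprotein C-II activates, read 65483 and 65482 units at the higher dose and 52483 and 59998 units in control cells. The higher-dose readings lie at the scanner's ceiling, so the size of any change in Lpl cannot be given. Without either control or either higher-dose array, 0 of the 98 genes with a probe in these 4 lists were past the threshold at the higher dose, and the calls for Lrp4 and Nr1d2 were also lost without either lower-dose array. At the lower dose, 0 of the 98 were past the threshold and 3 had an unadjusted p under 0.05.

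Apoe is also a marker of disease-associated microglia, a state described near plaques in mouse brain. Of 31 other genes raised in that state, 28 had a probe, and at the higher dose 5 rose and 0 fell, where 6.37% of all named genes rose and 5.39% fell, with a median log2 change of 0.24. They were Cd52 (1.83 ± 0.15), Cd63 (1.94 ± 0.25), Lgals3 (1.07 ± 0.18), Cst7 (1.02 ± 0.19) and Timp2 (0.78 ± 0.15), with limma adjusted p from 0.0184 to 0.0373. B2m, Fth1, Lpl and the brighter probe of Ctsl read at the scanner's ceiling on both higher-dose arrays, and Cd68 on 1. The size of any rise in these genes of the list cannot be given, and they count among those not called. Of 29 genes of homeostatic microglia, 24 had a probe, and 1 rose and 2 fell, beside the same 6.37% and 5.39% of all named genes. Glutamine synthetase Glul rose by 1.59 ± 0.19 (limma adjusted p = 0.0204), and the phagocytic receptor gene Mertk fell by 1.5 on the log2 scale (SE 0.17, limma adjusted p = 0.0199). Mef2c, a transcription factor, fell by 1.87 by its brighter probe (limma adjusted p = 0.0204), while its other probe stood at −0.68 (limma adjusted p = 0.0974). The reverse held for Igf1 of the disease-associated list, whose brighter probe stood at −0.01 (limma adjusted p = 0.988) and whose other probe rose by 1.35 (limma adjusted p = 0.0259). All 8 calls in these lists were lost without either control or either higher-dose array, and those for Cst7 and Timp2 also without either lower-dose array.

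Markers of the cells themselves differed in direction at the higher dose. The summed intensity of 13 microglia and macrophage markers was 206520 to 248501 units at the higher dose, against 148480 to 158704 units in control cells, with Cd68 at the scanner's ceiling on 1 higher-dose array. Of the 13, 4 rose and 0 fell, where 6.37% of all named genes rose and 5.39% fell. Those that rose were Aif1, Fcer1g, Itgam and Fcgr3, while 6 had negative changes, among them Adgre1 at −0.49 (limma adjusted p = 0.151) and Csf1r at −0.48 (limma adjusted p = 0.202), and the median log2 change was 0.22. All 4 calls were lost without either control or either higher-dose array, and those for Itgam and Fcgr3 also without either lower-dose array. In bulk RNA, more cells of a kind and more RNA per cell cannot be told apart. Liver and astrocytes are the best-known sources of apolipoprotein E. The summed intensity of 17 hepatocyte markers was 22633 to 26483 units at the higher dose and 29048 to 30341 units in control cells. Most of that sum was transferrin (Trf), which read 23521 and 20175 units at the higher dose and 29024 and 27480 units in control cells. Of the 17, 12 had positive changes and the median log2 change was 0.31. The retinol carrier gene Rbp4 rose by 1.62 ± 0.20 by its brightest probe (limma adjusted p = 0.0204), and 0 of the 17 fell. Its other probes stood at 0.24 (limma adjusted p = 0.526) and 0.05 (limma adjusted p = 0.902). The call for Rbp4 was lost without either control or either higher-dose array. Of these markers 11 lay at or below the array median on all arrays, and albumin (Alb) read 16 and 45 units at the higher dose and 8 and 39 units in control cells. The 14 astrocyte markers summed to 22698 to 23894 units at the higher dose and 17183 to 19355 units in control cells. Of these 8 lay at or below the array median on all arrays, 1 rose, which was Glul, and the defining marker Gfap read 72 and 50 units at the higher dose and 66 and 74 units in control cells. Glul read 7538 and 8225 units at the higher dose and 2060 and 2882 units in control cells. Aldoc, the largest part of the astrocyte sum, read 15096 and 13272 units against 15931 and 13033 units. Of the 14, 8 had negative changes and the median log2 change was −0.08. Of the measured markers of neurons (10), oligodendrocytes (12), fibroblasts and endothelium (14) and lymphocytes (10), 0 rose and 1, a neuron marker, fell. The part of these markers in the apolipoprotein values was not tested.

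**Figure D5:**
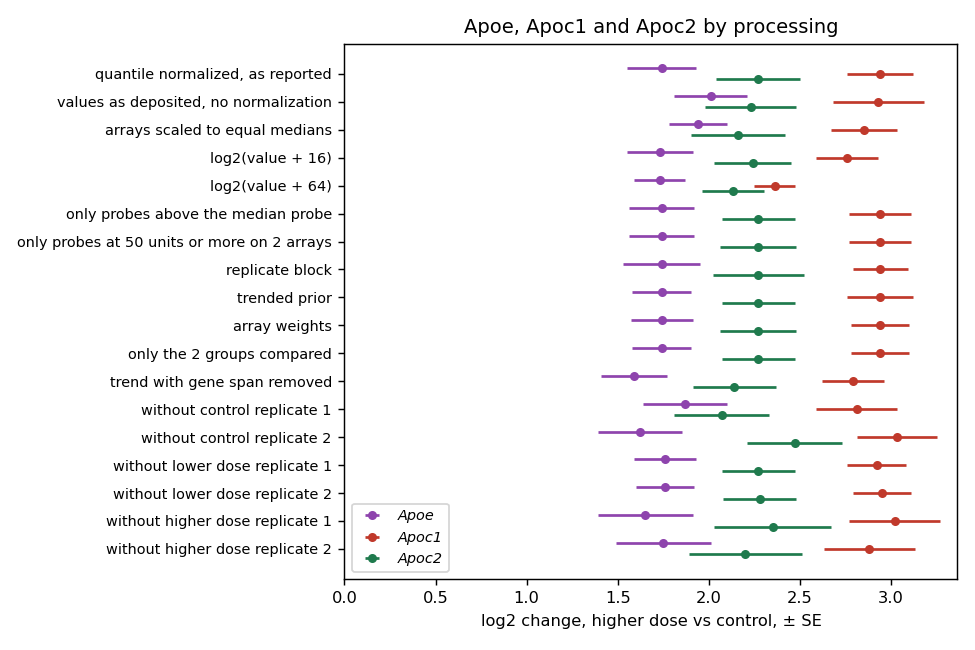
Log2 change with SE (horizontal axis, from 0) of Apoe, Apoc1 and Apoc2 at the higher dose against control, for the values as reported (top) and each other way of processing. Across the 17 alternatives the change stayed between 1.59 and 2.01 for Apoe, between 2.36 and 3.03 for Apoc1 and between 2.07 and 2.47 for Apoc2.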

How the data were processed

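Cy5-labelled cDNA from total RNA was measured on Phalanx OneArray chips, per the labels' protocols. The values as deposited are linear background-subtracted intensity, whole numbers from −21 to 65489. The submitters' processing notes name RMA without its role, yet the deposited intensity medians differ between arrays. Scanner, background method and genome build were not given in the sources used here. Arrays were quantile-normalized, values under 1 set to 1 and log2 taken. A model over the 6 arrays, with a mean for each group and 3 residual degrees of freedom, was fitted with lmFit and eBayes of limma 3.58.1 in R 4.3.3, with two-sided tests, Benjamini-Hochberg adjustment over 26423 probes and a threshold of 0.05. The fit was also run on simulated data with independent noise and changes planted in probes above the median probe. That run does not cover changes in dim probes, readings at the ceiling or shifts of whole arrays. The number of arrays limits the precision. Symbols came from an old platform annotation (20377 probes with 1 symbol, none with several, 6046 unnamed here), of which 18213 matched a RefSeq table of GRCm38.p6 exactly and 2126 by a unique synonym. The brightest probe stood for a gene. Of the 3 apolipoprotein genes, promoter sequences matched for Apoe and Apoc2. The genes, the lists and the motifs were chosen with earlier results of these data known. Named genes were all apolipoprotein genes, the 5 smallest p at the higher dose per list, a fixed set of lipid genes, the 5 nearest profiles and the 6 neighbours on each side, of which those the results turn on are given. Alternatives were no normalization, equal medians, pseudocounts of 16 and 64 (the second chosen after seeing the data), filters on dim probes (the median probe, or 50 units on 2 arrays), array weights, the replicate number as a block, only the groups compared, a trended prior, removal of the span trend, mean of a gene's probes, and leaving out each array. Motifs and figures used Python 3.11.15 and matplotlib 3.10.9.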

Additional observations from a re-analysis of the deposited data

How the results depend on the processing

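At the higher dose against control, the log2 changes of Apoe, Apoc1 and Apoc2 kept their direction in 17 of 17 alternatives, and each of the 3 genes kept its side of the threshold in 12. The 3 probes past the threshold became 0 with the replicate block, and 0 to 3 when 1 array was left out. Equal replicate numbers are not stated to share a culture or day, and deviations of equally numbered arrays correlated at 0.313 for higher dose with control, −0.226 for higher with lower dose and 0.033 for lower dose with control, so the numbers were not taken as pairs. With the block, 11 of all probes were called in this comparison, and the 3 genes had an adjusted p of 0.0517. For the higher against the lower dose, the 3 probes became 0 when only those groups were fitted and 0 without any 1 array. At the lower dose against control, the log2 change of Apoe ranged from −0.02 (without lower-dose replicate 2) to 0.29 when 1 array was left out. That of Apoc2 ranged from −0.27 to 0.14 and turned positive without control replicate 2 or lower-dose replicate 2, and on values as deposited (0.14). Adjusted p was at least 0.569 for all 3 genes. On values as deposited the median change of all probes was 0.22 in that comparison, where Apoe stood at 0.27 and Apoc1 at 0.42. Of all named genes, each by its brightest probe as in the lists, 6.37% rose and 5.39% fell at the higher dose against control. For the higher against the lower dose, 1374 of the 17742 named genes rose and 1330 fell. Shares of all probes, given next, also include dim and unnamed probes. The 10 genes past the threshold among the 4 lipid lists at the higher dose against control are 10 of 98, beside 10.6% of all probes. They became 23 with 64 units added (21% of all probes), 25 of 68 among probes above the median probe (41.8%), 17 of 80 among probes at 50 units or more on 2 arrays (25%), 19 with a trended prior (18.9%), 0 with the replicate block and 0 to 9 without 1 array. Their 15 for the higher against the lower dose, beside 13.7% of all probes, became 23 and 30 with 16 and 64 units added (21.4% and 23.9% of all probes), 28 and 24 with the filters on dim probes (46.7% and 29.4%), 7 with the replicate block, 0 when only those groups were fitted and 0 without any 1 array. The count at the lower dose was 0 in limma under every alternative run. Fits with 1 array fewer have 2 residual degrees of freedom and, in a group left with 1 array, assume that it varies like the others. Readings near 0 or 65000 units limit the size of a change that can be measured.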
